A study of Ovis aries with 18 samples.

Results

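The importin alpha genes KPNA1 to KPNA7 and their partner KPNB1 were followed in pools of sheep embryos, together with the single sperm cytosine that the study assigned to KPNA7. The members were chosen by gene symbol, and all 8 were among the 20092 genes of the count table. All 8 also passed the low-count filter (at least 15 counts in at least 4 pools), which left 16488 genes to test. The cytosine is 1 of the 1850625 cytosines in CpG context listed for sperm.

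The sires were 6 Polypay rams, which were bred to superovulated ewes to give the embryos. The 3 control rams (Ram410, Ram423 and Ram444) ate a basal diet, and the 3 methionine-treated rams (Ram424, Ram498 and Ram511) ate the same diet with a top-dress of rumen-protected methionine, 1.5 g or 0.22%, before puberty. Semen from each ram was analysed by reduced representation bisulfite sequencing (RRBS), which reads methylation as the share of methylated reads at single cytosines. Blastocysts were flushed from the ewes, and RNA was sequenced from 12 pools of 5 embryos after whole transcriptome amplification. Each control ram sired 2 pools, so the control group held 6 pools. The methionine group also held 6 pools, of which 4 came from Ram424, 1 from Ram498 and 1 from Ram511. The diet was given to rams, and pools of 1 ram share a sire, so p-values over pools measure the spread between pools and not only that between rams.

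Proteins with a classical nuclear localization signal enter the nucleus with the help of an importin alpha, which holds the signal, and importin beta 1, the product of KPNB1, which carries the pair through the nuclear pore. The GTPase Ran releases the cargo inside the nucleus, and the exportin CSE1L returns importin alpha to the cytoplasm. The importin alpha proteins differ in the cargo they favour. KPNA2 is abundant in dividing and pluripotent cells, while KPNA7 is known as the importin alpha of the mammalian oocyte and cleavage-stage embryo.

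Total counts per pool ran from 1017847 to 2398589, and 18934 to 19575 genes had at least 1 count. Embryo444_2 (control) and Embryo511_1 (methionine) stood apart from the other 10 pools: their median Spearman correlation with the other pools, over genes, was 0.58 and 0.60, against 0.82 to 0.86 for the others. The labels call every pool blastocyst, but most of the defining markers of trophectoderm and inner cell mass were low in these pools. The summed level of the 7 trophectoderm markers in the table was 224 CPM (counts scaled to a common library size) in Embryo444_2 and 194 CPM in Embryo511_1, against 5252 to 14350 CPM elsewhere. KRT8, a keratin of the trophectoderm and the highest of that list, was at 116 and 42.6 CPM against at least 3893 CPM. ELF5, at 29.0 and 66.4 CPM, was within the 17.1 to 128 CPM of the other pools. The 3 inner cell mass markers summed to 98.4 and 214 CPM against 420 to 1195 CPM, and the 5 hypoblast markers to 384 and 501 CPM against 741 to 1418 CPM. NANOG was within its range in both (9.91 and 7.93 CPM against 5.10 to 16.3 CPM). No listed marker of any cell type was at 0 in all pools. In pools of embryos, fewer cells of a type and less RNA per cell cannot be told apart. The diet differences of the genes described below are therefore given with and without these pools.

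KPNA7 was detected in every pool, with 45 to 127 counts. Across the 10 other pools its level was even, from 26.8 to 44.2 CPM after trimmed mean of M-values (TMM) scaling, with a median of 34.2 CPM. The coefficient of variation over these 10 pools was 14.0%, and read counting alone gives about 13.5% at 45 to 90 counts per pool. Embryo444_2 lay just above this range at 48.1 CPM (68 counts, 95% Poisson interval 52.8 to 86.2 counts), a step within counting error. Of all genes tested, 31.8% rose at least as far there over their own median of the 10 pools. Embryo511_1 reached 126 CPM (127 counts), 3.68-fold the median of the 10 pools, and 5.80% of genes rose at least as far there.

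**Figure D1:**
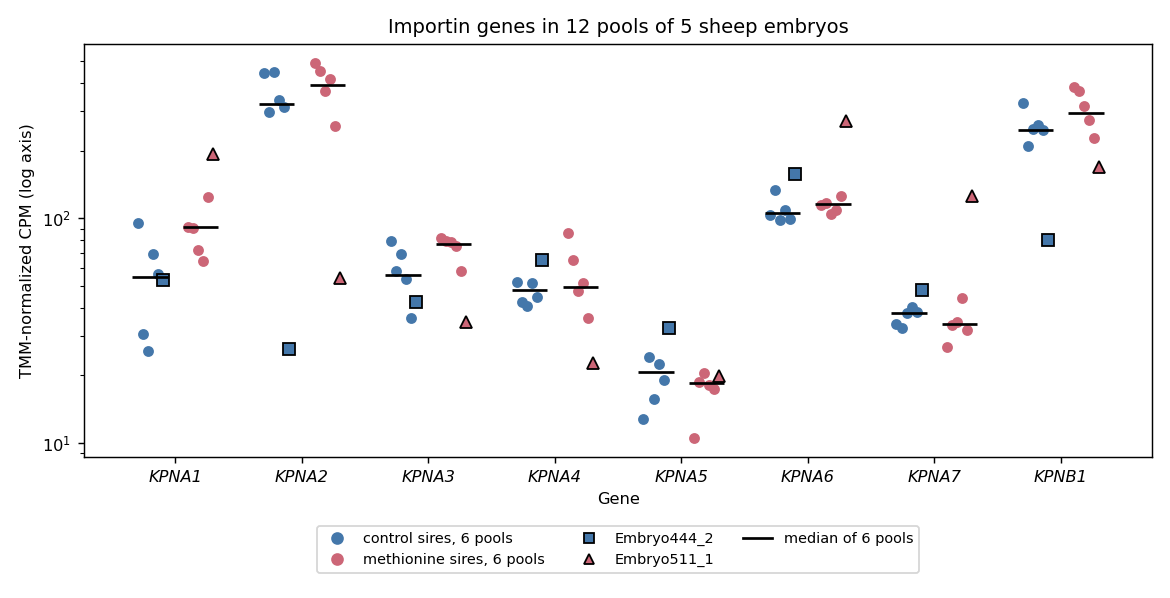
TMM-normalized CPM of the 8 importin genes (log axis) in each pool, with control sires in blue, methionine sires in red and a line at the median of each 6 pools. The square marks Embryo444_2 and the triangle Embryo511_1. KPNA7 lies between 26.8 and 44.2 CPM in 10 pools and at 126 CPM in Embryo511_1, while KPNA2 lies at 26.2 and 54.5 CPM in the marked pools against at least 257 CPM elsewhere.

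By diet, KPNA7 ran from 32.6 to 48.1 CPM with a median of 38.1 in the 6 control pools, and from 26.8 to 126 CPM with a median of 34.0 in the 6 methionine pools. The methionine pools thus held both the lowest and the highest value, and the groups overlapped. The means were 38.5 ± 5.54 CPM (SD, n = 6) in controls and 49.5 ± 37.9 CPM (SD, n = 6) with methionine. The log2 fold change, methionine minus control, was 0.34 ± 0.35 (standard error), with a false discovery rate (FDR) of 0.819 by edgeR's quasi-likelihood test. Without Embryo511_1 it was -0.17, and without both pools that stood apart it was -0.11 ± 0.23, so the sign of the difference rested on 1 pool. Without the 4 pools of Ram424 it was 1.03 (edgeR FDR 0.541). The exact permutation test of the mean log2(CPM + 0.5) gave p = 0.892 over 924 assignments of the pools and p = 0.9 over 20 assignments of the rams, two-sided.

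KPNA2, which had more counts than any other importin alpha in each of the 10 similar pools, behaved in the opposite way in the pools that stood apart. It ran from 257 to 492 CPM in the 10 pools, with a median of 392 CPM. It was at 26.2 CPM (37 counts) in Embryo444_2 and at 54.5 CPM (55 counts) in Embryo511_1, which is 0.0668-fold and 0.139-fold that median. KPNA2 was thus low in the same pools as the summed trophectoderm and inner cell mass markers given above. In both of these pools 12.9% of all genes tested were also below the 10 similar pools. Whether the makeup of the pools played a part was not tested.

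The ratio of KPNA7 to KPNA2 counts within a pool needs no scaling between pools. It was 0.0544 to 0.124 in the 10 pools, 1.84 in Embryo444_2 and 2.31 in Embryo511_1, so the order of the 2 genes by counts was turned round in the latter pair. These are counts not divided by transcript length, and they do not rank the genes by molecules. Of all reads on the 7 importin alpha genes, KPNA2 took 39.4% to 60.9% in the 10 pools. It took 6.17% in Embryo444_2 and 7.54% in Embryo511_1. KPNA7 took 2.96% to 6.32% of those reads in the 10 pools, 11.3% in Embryo444_2 and 17.4% in Embryo511_1. The total includes KPNA2, which was only 37 of 600 reads in Embryo444_2 and 55 of 729 in Embryo511_1. A fall in KPNA2 by itself raises the shares of the other members.

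KPNA6 also took a larger share of the importin alpha reads there, 37.0% in Embryo444_2 and 37.6% in Embryo511_1 against 12.6% to 21.6%. This share too rises when KPNA2 falls. In the 10 pools KPNA6 ran from 98.6 to 134 CPM, and its coefficient of variation of 10.3% was the lowest of the members. Read counting alone gives about 7.61% for it. For KPNA7, with fewer counts, the values were 14.0% and 13.5%, so the ranking depends on read depth. KPNA6 was at 157 CPM in Embryo444_2 and 272 CPM in Embryo511_1. KPNB1, the shared carrier, was at 80.0 and 169 CPM against 210 to 383 CPM in the 10 pools.

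**Figure D2:**
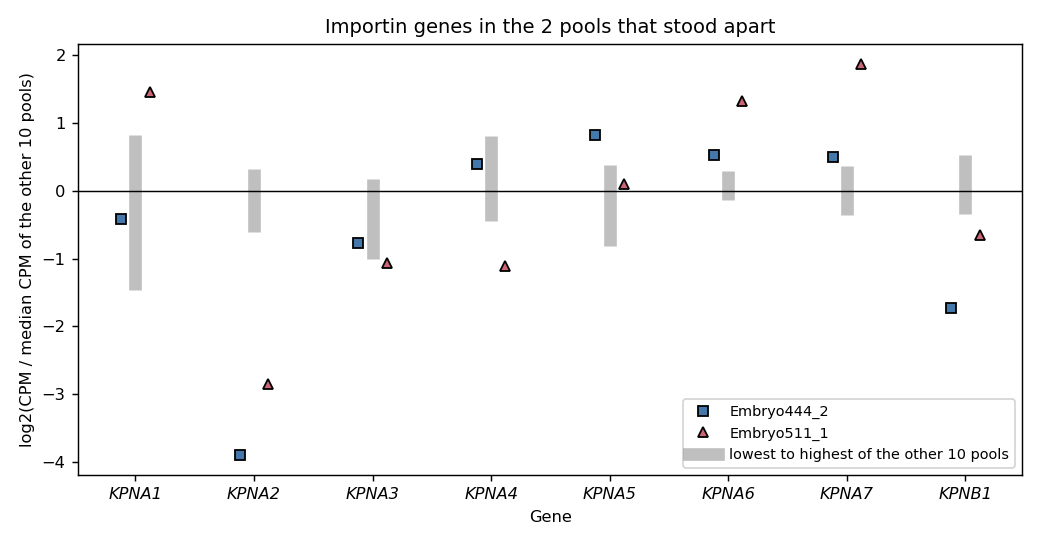
Level of each importin gene in Embryo444_2 (square) and Embryo511_1 (triangle) as log2 of its CPM over the median CPM of the other 10 pools, with the range of those 10 pools as a grey bar. KPNA6 and KPNA7 lie above the bar and KPNA2 and KPNB1 below it in both pools.

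In both pools KPNA6 and KPNA7, 2 of 8 members, were above all 10 other pools, as were 8.15% of the genes tested. For KPNA7 in Embryo444_2 this rested on 48.1 CPM against at most 44.2 CPM, a gap within counting error. KPNA2 and KPNB1, also 2 of 8, were below all 10 in both, as were 12.9% of the genes tested. In Embryo444_2 alone 3 members were above the range (22% of genes) and 2 below (24.6%), with KPNA5 at 32.6 CPM against 10.5 to 24.1 CPM as the third above. In Embryo511_1 3 members were above (24.9% of genes) and 4 below (26.6%). There KPNA1 was at 193 CPM against 25.7 to 125 CPM, KPNA3 at 34.7 CPM against 36.2 to 81.7 CPM and KPNA4 at 22.8 CPM against 36.1 to 86.0 CPM. Both pools were thus outside the range for a large share of all genes, and the importin genes moved in both directions.

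Oocyte genes were examined next because KPNA7 is known from the oocyte. Embryo511_1 held 783 CPM of the 9 oocyte markers in the table, against 122 to 204 CPM in the 10 similar pools. ZP2 and ZP3, which encode proteins of the zona pellucida, made up most of that sum, at 205 and 410 CPM against at most 54.5 and 26.8 CPM. NLRP5, a maternal-effect gene, was at 57.5 CPM there against 14.3 to 55.7 CPM. ZAR1, another maternal-effect gene, had no count in Embryo511_1 and was at 4.96 to 19.6 CPM in the 10 pools. Embryo444_2 held 134 CPM of the oocyte list, within the range of the 10 pools, and its ZP3 was at 27.6 CPM. GDF9 and BMP15 were not analysed here. The oocyte list thus did not move as 1 group, and its part in the level of KPNA7 was not tested.

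Some markers of other cells also moved in these pools. The 4 sperm markers summed to 1066 CPM in Embryo511_1, of which TNP1, a transition protein of spermatids, gave 1008 CPM, while the 10 similar pools held at most 106 CPM. The rest of that list did not rise there. TNP2 was at 0, ODF1 at 3.97 CPM against 0 to 9.92 CPM and AKAP4 at 53.5 CPM against 14.3 to 83.7 CPM. The 3 cumulus markers summed to 161 CPM in Embryo444_2 against 52.9 to 95.4 CPM, with HAS2 the highest at 106 CPM. The 4 uterine markers summed to 119 CPM there against 55.7 to 103 CPM, of which MUC1 gave 53.1 CPM against 8.85 to 17.5 CPM, while ESR1, the highest of the list by mean, was within its range at 46.0 CPM. The summed level of the 4 blood markers, led by ALAS2, was within the range of the 10 pools in both. Of these PTPRC, a marker of leukocytes, was above its range in both, at 121 and 254 CPM against 40.2 to 76.5 CPM, and ALAS2 was below it, at 9.91 and 10.9 CPM against 14.5 to 622 CPM. SALL4 led the inner cell mass list and was at 74.3 and 167 CPM, against 277 to 827 CPM in the 10 pools. GATA6 led the hypoblast list, at 38.9 and 66.4 CPM against 249 to 801 CPM. Other hypoblast markers were higher: GATA4 was at 94.2 CPM in Embryo511_1 against 18.2 to 44.3 CPM, and PDGFRA at 166 CPM in Embryo444_2 against 96.3 to 155 CPM. MUC1, PTPRC, GATA4, PDGFRA, ELF5, NANOG, TNP2, ODF1 and AKAP4 were named after their values were seen.

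The 5 genes that followed KPNA7 most closely were found by the Spearman correlation of log2(CPM + 0.5) over the 12 pools, out of 16487 other genes. They were LTBP2 (0.95), MYO3A (0.95), LOC101123341 (0.94), MGAT4A (0.92) and TAAR5 (0.92). The points share pools, depth and scaling, and all 5 were above the 10 similar pools in both Embryo444_2 and Embryo511_1. LTBP2, for example, was at 231 and 122 CPM against 69.8 to 95.1 CPM. Over the 10 similar pools alone the coefficients of the 5 were 0.87 to 0.93. These pools were part of the choice of the 5, so this is not a second test. In all, 64 genes reached 0.8 or more over the 10 pools, where the spread of KPNA7 was close to counting error. No other importin gene was close to KPNA7: KPNA5 had the highest coefficient at 0.48 and KPNA3 the lowest at -0.66.

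The question of the embryo experiment was whether the diet of the sire moved gene expression. None of the 8 importin genes was called at FDR under 0.05 in the fit of all genes, as were 0% of the 16488 genes by edgeR's quasi-likelihood test. Before adjustment 1306 genes (7.92%) had p under 0.05. With edgeR's likelihood-ratio test 5 genes were called and with DESeq2 16, with no importin gene among them. One member, KPNA1, had an unadjusted p under 0.05, and it was higher with methionine, as were 3.55% of the genes tested.

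KPNA1 encodes another importin alpha of the family. It ran from 25.7 to 95.6 CPM with a median of 54.9 in the control pools, and from 64.4 to 193 CPM with a median of 91.2 in the methionine pools. The groups overlapped, with the highest control pool (Embryo410_1) above 4 of the 6 methionine pools and the 2 highest values in the pools of Ram498 and Ram511. The means were 55.1 ± 25.8 and 106 ± 47.5 CPM (SD, n = 6 each). The log2 fold change was 0.94 ± 0.34 (standard error), with FDR 0.585 by edgeR's quasi-likelihood test and an unadjusted p of 0.0140 in the same edgeR fit. The exact permutation test over pools gave p = 0.0281, two-sided and not adjusted over the 8 genes. The exact permutation test over rams gave p = 0.1, the smallest that 3 rams against 3 allow.

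The KPNA1 difference depended on single pools and on the scaling. With library size alone the exact permutation p over pools was 0.0714. The exact permutation p was 0.0519 without Embryo423_1, 0.0541 without Embryo498_1 and 0.0563 without Embryo511_1. Without both pools that stood apart the edgeR log2 fold change was 0.66 ± 0.32 (FDR 0.425), and the exact permutation p over the 10 pools was 0.0952. Per ram, the mean KPNA1 level was 63.0, 47.5 and 54.9 CPM for Ram410, Ram423 and Ram444, and 79.7, 125 and 193 CPM for Ram424, Ram498 and Ram511. The methionine rams were thus all above the control rams, but 2 of the 3 values rest on 1 pool each. Full separation of so few rams gives an exact permutation p of 0.1 and no less. The share of all genes whose rams separate in this way was not counted.

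**Figure D3:**
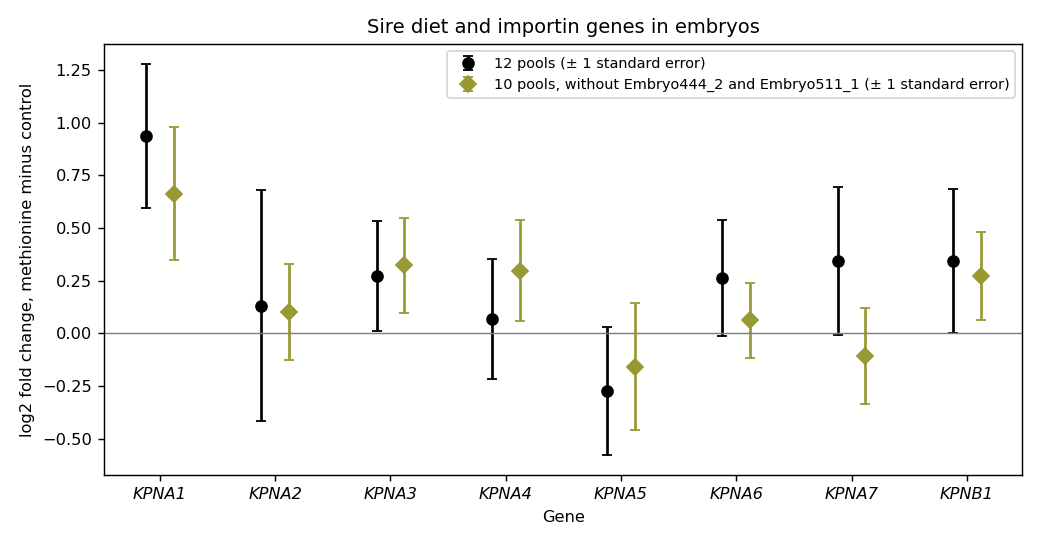
edgeR log2 fold change of each importin gene, methionine minus control, with bars of 1 standard error, in all 12 pools (black circles) and in the 10 pools without Embryo444_2 and Embryo511_1 (olive diamonds). KPNA1 has the highest value in both fits, 0.94 and 0.66, and KPNA7 moves from 0.34 to -0.11.

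The remaining members differed little between the diets relative to their spread. KPNA2 averaged 311 ± 154 CPM in controls and 340 ± 162 CPM with methionine (SD, n = 6 each), a log2 fold change of 0.13 ± 0.55. Its variation between pools of a group, a biological coefficient of variation of 64.3%, was larger than that of 93.8% of the genes tested. KPNB1 averaged 228 ± 81.6 and 290 ± 82.9 CPM (SD, n = 6 each), a log2 fold change of 0.34 ± 0.34. The log2 fold changes of KPNA3, KPNA4, KPNA5 and KPNA6 lay between -0.28 and 0.27 with standard errors of 0.26 to 0.30. The edgeR FDR of these 6 genes was 0.802 to 0.967.

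In the 10 similar pools no importin gene was called, and none had an unadjusted p under 0.05, against 11.9% of the 16161 genes tested in that fit. The members' log2 fold changes there ran from -0.16 for KPNA5 to 0.66 for KPNA1, with standard errors of 0.18 to 0.32 and edgeR FDR of 0.425 to 0.922. KPNA2 was at 0.10 ± 0.23 and its standard error was thus less than that over 12 pools.

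The other genes of the nuclear transport route were taken from a list of 55, of which 51 were in the table and all of those were tested. By edgeR none was called at FDR under 0.05. A group of 5 had an unadjusted p under 0.05, all higher with methionine and all of them nucleoporins, the proteins of the nuclear pore: NUP88, SEH1L, NUP37, RAE1 and NUP62. Over all genes tested 7.92% had an unadjusted p under 0.05, and 3.55% were also higher with methionine. These 5, of the 28 nucleoporins tested, were named after their values were seen. Of the 51 genes, 36 had a log2 fold change above 0 and 15 below, and the median was 0.16 against 0.0051 over all genes tested. The median was 0.061 with scaling by library size alone, and it turned to -0.11 without the 4 pools of Ram424. There 5 of the transport genes were higher and 2 lower at an unadjusted p under 0.05. Over all 15594 genes of that fit, 1046 were higher and 292 lower at that p. The count of 5 fell to 2 with scaling by library size alone and to 0 with the ram as a random effect. Of all 16488 genes, 586 were higher at that p in the main fit, 371 by library size and 170 with the random effect. In the 10 similar pools the count was 7, again of 51 and all higher with methionine. There 927 of all 16161 genes tested were higher at that p, and 11.9% passed in either direction.

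NUP88 averaged 61.2 ± 21.5 CPM in controls and 114 ± 52.7 CPM with methionine (SD, n = 6 each), with an edgeR log2 fold change of 0.89 ± 0.35 and FDR 0.585 (0.62 ± 0.30 without the pools that stood apart). The groups overlapped, since control pools reached 80.5 CPM and methionine pools began at 54.1 CPM. SEH1L overlapped as well, at 32.6 to 99.3 CPM in controls and 89.2 to 160 CPM with methionine, with a log2 fold change of 0.65 ± 0.27 in 12 pools and 0.55 ± 0.19 in 10. Among all nucleoporins NUP43 had the largest positive log2 fold change, 1.52 ± 0.76, which rested on 1225 CPM in Embryo511_1 against at most 154 CPM in every other pool, and which was -0.54 ± 0.33 in the 10 similar pools. NUP85 had the most negative, -0.51 ± 0.33, and was at -0.19 ± 0.25 in the 10 pools. NUP50, which helps to release cargo from importin alpha, had a log2 fold change of 0.45 ± 0.39 in 12 pools and 0.58 ± 0.27 in 10 pools (edgeR FDR 0.408), and was at 31.7 CPM in Embryo511_1 against at least 92.1 CPM in the 10 similar pools.

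CSE1L, the exportin of importin alpha, averaged 177 ± 61.6 and 168 ± 64.9 CPM (SD, n = 6 each), a log2 fold change of -0.073 ± 0.32. Without the pools that stood apart the sign turned, to 0.26 ± 0.22. Embryo444_2 held the highest level, 292 CPM against 116 to 256 CPM in the 10 similar pools, and Embryo511_1 the lowest, 77.3 CPM. Among the exportins the extremes were XPO6 (0.49 ± 0.49, and 0.51 ± 0.26 in 10 pools) and XPO5 (-0.10 ± 0.20, and -0.12 ± 0.20 in 10 pools). In the Ran cycle RCC1, the exchange factor of Ran, was at -0.19 ± 0.26 in 12 pools and at 0.039 ± 0.23 in the 10 pools. The extremes of that class were RANGAP1, the activating protein of the Ran GTPase (0.46 ± 0.25, and 0.39 ± 0.26 in 10 pools), and RANBP3 (-0.47 ± 0.28, and -0.45 ± 0.29 in 10 pools). RAN itself was not analysed here. Among the other transport receptors the extremes were SNUPN, the adaptor of small nuclear ribonucleoproteins (0.55 ± 0.32, and 0.24 ± 0.30 in 10 pools), and IPO13 (-0.55 ± 0.44, and -0.57 ± 0.47 in 10 pools). For IPO13 the control group reached 196 CPM in 1 pool, and the medians ran the other way, 40.4 CPM in controls and 42.9 CPM with methionine. The edgeR FDR of these genes was 0.663 to 0.968 in 12 pools and 0.446 to 0.966 in 10.

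In Embryo444_2 and Embryo511_1, 10 of the 51 transport genes were below all 10 similar pools in both, and 1, NDC1, was above. The 10 were IPO5, IPO7, TNPO1, TNPO3, XPO1, XPO6, RANBP1, NUTF2, NUP93 and RAE1. XPO1, the general export receptor, was at 82.8 and 108 CPM against 192 to 363 CPM. All were named after their values were seen. These shares can be read against 12.9% of all tested genes below and 8.15% above.

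The sperm experiment asked whether the diet moved methylation in the rams themselves. The cytosine assigned to KPNA7 lies on the + strand of chromosome 24 at position 37809296 of Oar_rambouillet_v1.0, in an intron of the gene by the study's annotation. It was methylated in 17 of 17 reads in Ram410, in 12 of 12 in Ram423 and in 16 of 16 in Ram444. In the methionine rams it was methylated in 7 of 12 reads in Ram424 (58.3%, 95% Wilson interval 32.0 to 80.7%), in 8 of 10 in Ram498 (80.0%, 49.0 to 94.3%) and in 7 of 13 in Ram511 (53.8%, 29.1 to 76.8%). The groups did not overlap, and no control ram had an unmethylated read: 0 of 45 reads allows a share of up to 6.67%. Intervals and limits cover counting error only.

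The mean level was 100% ± 0 (SD, n = 3) in controls and 64.1% ± 14.0 (SD, n = 3) with methionine, and over pooled reads the difference was -37.1 percentage points (62.9% of 35 reads against 100% of 45). In the logistic fit over all cytosines, without the age of the rams, the site had a q-value of 0.00403. It was 1 of 341 cytosines called (q under 0.01 and over 20 percentage points), 0.0184% of those tested. The study picked the site on these same rams, so these values describe it and do not test it again. The exact permutation test over the 6 rams gave p = 0.1, the smallest it can give. With an F test in place of the chi-square test the q-value was 0.971 and no cytosine was called at all.

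The call did not hold when most single rams were left out, which also leaves fewer rams and reads. The q-value was 0.0331, 0.0211 and 0.0396 without Ram410, Ram423 and Ram444, 0.0114 without Ram424 and 0.0854 without Ram511, all above the threshold of 0.01, and 0.00109 without Ram498. The difference stayed between -44.0 and -31.8 percentage points in these fits. With 10 to 17 reads per ram the site was thinly covered, since only 8.91% of cytosines had a lowest coverage as small as 10 reads (the minimum of the table), and it drops out where at least 20 reads are required.

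The site stood alone in the table. Its partner cytosine on the opposite strand was not listed, as for 40.2% of cytosines, and no other cytosine was listed within 1000 bp, which held for 0.689% of them. Of these 12752 isolated cytosines, the site among them, 17 (0.133%) were called, against 0.0184% of all cytosines. The nearest listed cytosines were 2337 bp away on one side and 29006 bp on the other. A group of 9 cytosines lay 2337 to 2407 bp to the left. Their mean level was 96.5% to 100% in the 3 control rams and 96.3% to 98.3% in the methionine rams, with differences from -5.17 to 2.28 percentage points and none called. Of all 22 other cytosines within 30000 bp, 0 were called and 2 had an unadjusted p under 0.05 in the same logistic fit, chosen as a window after the data were seen.

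**Figure D4:**
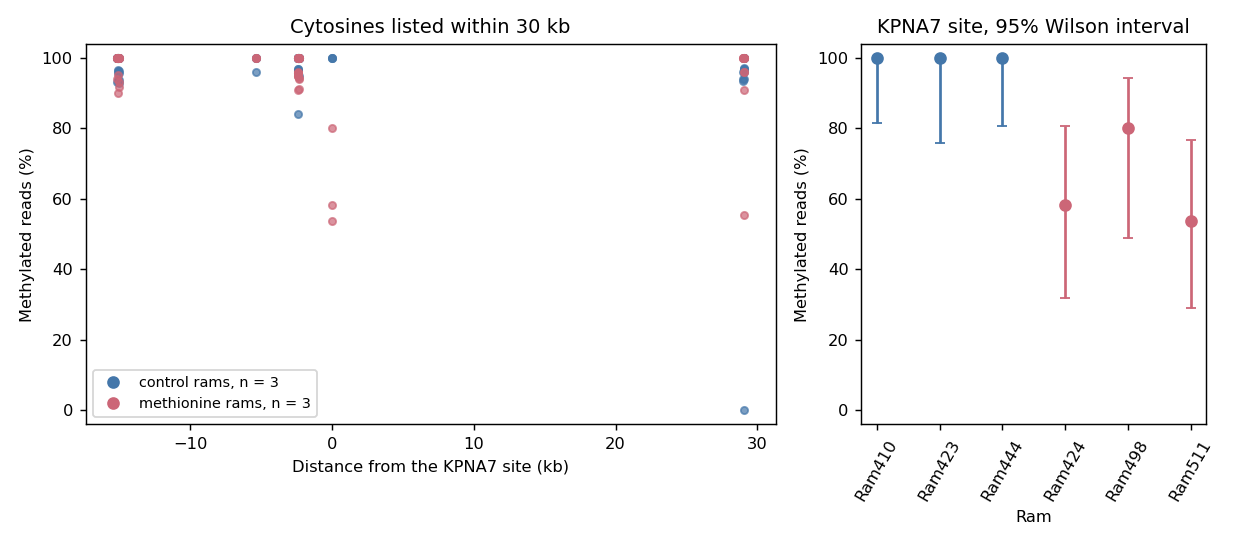
Left, methylation level of each listed cytosine within 30 kb of the KPNA7 site in each ram, by distance from the site, with control rams in blue and methionine rams in red. Right, the level at the site itself with 95% Wilson intervals. Control rams are at 100% at the site and methionine rams at 53.8% to 80.0%, while the 9 cytosines to the left near 2.3 kb stay at 84.2% or more in every ram.

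One cytosine in that window varied more between single rams than the KPNA7 site. It lay 29083 bp to the right and was at 0% of 34 reads in Ram423, at 55.6% of 18 reads in Ram511 and at 100% in the other 4 rams. Its difference by diet was 22.96 percentage points, with an unadjusted p of 0.561 in the logistic fit. This cytosine was named after its values were seen. The listed cytosines at 29006 to 29067 bp stayed at 90.9% to 100% in every ram. Genotypes of the rams were not examined, so the source of the levels at this cytosine or at the KPNA7 site was not tested.

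The sperm site and the KPNA7 level of each ram's embryos can be set side by side. Ram410, Ram423 and Ram444, each at 100% methylation, sired pools with mean KPNA7 levels of 33.2, 39.1 and 43.2 CPM. Ram424, at 58.3%, sired pools with a mean of 34.7 CPM (26.8 to 44.2 CPM over 4 pools), and Ram498, at 80.0%, a pool with 31.9 CPM. Ram511, at 53.8%, sired the pool at 126 CPM, Embryo511_1. The Wilson intervals of Ram511 (29.1 to 76.8%) and Ram424 (32.0 to 80.7%) overlapped. Embryo511_1 is 1 pool, and it was above the 10 similar pools for 24.9% of all genes tested and below them for 26.6%. The rams fall into separate methylation levels by diet with 3 in each, so no correlation over them was computed.

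By gene order in the RefSeq annotation, ARPC1B and ARPC1A lie on one side of KPNA7 and SMURF1 and TRRAP on the other. None was called by edgeR (FDR 0.608 to 0.896). TRRAP, a scaffold of histone acetyltransferase complexes, was also high in Embryo511_1, at 901 CPM against 196 to 305 CPM in the 10 similar pools. It was at 201 CPM in Embryo444_2. Its edgeR log2 fold change was 0.55 ± 0.38 in 12 pools and -0.035 ± 0.20 in the 10 similar pools. In Embryo511_1 SMURF1 was within its range (62.5 against 57.9 to 99.9 CPM) and ARPC1A below it (100 against 187 to 386 CPM). In that pool 24.9% of all genes tested were above the 10 similar pools. ARPC1B, a subunit of the actin-nucleating Arp2/3 complex, averaged 29.2 ± 9.90 CPM in controls and 17.3 ± 6.62 CPM with methionine (SD, n = 6 each), with an edgeR log2 fold change of -0.77 ± 0.33 and FDR 0.608 (-1.01 ± 0.32 and FDR 0.280 in the 10 similar pools). These 4 genes were chosen by position and not by their values.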

How the data were processed

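Embryo RNA was extracted from 12 pools and amplified as whole transcriptome. Reads were trimmed with Trimmomatic, aligned to Oar_rambouillet_v1.0 with STAR and counted per gene by the authors, who deposited raw counts. The strand setting and the annotation release are not given in the sources used here, so reads of overlapping or antisense genes cannot be told apart. Reads carried no molecular identifiers in RNA sequencing, and amplification can repeat molecules, so counting error is a lower limit. For sperm, the authors deposited counts of methylated, unmethylated and total reads per cytosine after Bismark alignment and deduplication by molecular identifiers. Every cytosine of that table had 10 or more reads in each ram.

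From these counts, edgeR 4.0.16 (R 4.3.3) was run with TMM scaling, diet as the only term, at least 15 counts in at least 4 pools, glmQLFit and glmQLFTest, and Benjamini-Hochberg adjustment over all 16488 genes. Levels are TMM-normalized CPM. Exact permutation tests used log2(CPM + 0.5). Cytosines were fitted by logistic regression with overdispersion of at least 1 and a chi-square test, with q under 0.01 and over 20 points in pooled reads (scipy 1.17.1). The age of each ram, which the study's model held, is not in the labels and was left out. Both fits were tested on simulated data. Median coverage per ram ran from 22 to 39 reads.

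The members and lists were chosen with earlier results of these data known. Genes named by rule were the 8 importins, the largest rise and fall of each transport class with NUP50, CSE1L, RAN and RCC1, the 5 genes most like KPNA7, 5 oocyte genes and the highest gene of each marker list. The other transport and marker genes were named after their values were seen, and the neighbours of KPNA7 by position. Marker lists covered trophectoderm, inner cell mass, hypoblast, oocyte, cumulus, uterine epithelium, blood and sperm. Alternatives were the likelihood-ratio test, DESeq2 1.42.0, other scalings and filters, sums per ram, limma 3.58.1 voom with the ram as a random effect, a replicate block, leaving out each pool or ram and, for sperm, other tests, coverages and thresholds. Embryo424_1 and Embryo424_2 were the most alike same-diet pools (chi-square per degree of freedom 3.38, others at least 8.64) but differed beyond sampling noise and were kept apart. Names of all 8 members matched the RefSeq gene table of ARS-UI_Ramb_v3.0, used for gene order only. Transcript lengths were not used, so levels are not compared between genes.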

Additional observations from a re-analysis of the deposited data

Results flagged for a closer look

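In 4 of the 16 groups of 6 pools (8 genes in each diet), 1 pool lay far from the rest, with Dixon's ratio of its gap to the whole range above the 95% critical value. Chance flags about 1 in 20 groups of independent, normally distributed values. The groups here share the same pools, so that rate cannot be applied to them, and the share flagged over all genes was not computed. KPNA7 in Embryo511_1 was at 126 CPM, with the next methionine pool at 44.2 CPM (ratio 0.824). KPNA6 in the same pool was at 272 CPM, with the next at 125 CPM (ratio 0.876). KPNA2 in Embryo444_2 was at 26.2 CPM, with the next control pool at 297 CPM (ratio 0.642). KPNA5 in Embryo424_1 was at 10.5 CPM (22 counts), with the next methionine pool at 17.5 CPM (ratio 0.698). The first 3 values belong to the pools with low trophectoderm and inner cell mass markers, and the part of those markers was not tested.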

How the results depend on the processing

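At FDR under 0.05 the main test called 0 genes by sire diet. The edgeR likelihood-ratio test called 5, DESeq2 called 16 and the fit without Embryo444_2 and Embryo511_1 (chosen after seeing the data) called 1, while the other alternatives, including each pool or ram left out, called 0. No importin or transport gene was called in any of them. Transport genes with an unadjusted p under 0.05 numbered 5, and 2 under library-size scaling, under the filter of 50 counts in 6 pools, under the replicate block and with Embryo424_1 and Embryo424_2 summed (chosen after seeing the data), 1 with counts summed per ram and 0 with the ram as a random effect. Leaving out 1 pool or ram gave 0 to 7. The number over all genes was 1306 in the main fit, 1333 under library-size scaling and 626 of 9112 under the 50-count filter. It was 876 under the replicate block, 974 with Embryo424_1 and Embryo424_2 summed, 572 with sums per ram and 355 with the random effect. Over all genes, leaving out 1 pool or ram gave 908 to 1941. The pool number within a ram does not pair pools across diets (correlation of deviations -0.32 to 0.23 over 12 pairs), and under the replicate block KPNA7 had a log2 fold change of 0.42.

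KPNA7 turned to -0.17 without Embryo511_1 and to -0.11 without both pools (range with 1 pool or ram left out -0.17 to 1.03), and the difference in mean log2 CPM turned from 0.14 to -0.18 and -0.12 (highest 0.27 with another pool left out). KPNA6 turned to -0.033 without Embryo511_1 (mean difference -0.013; highest 0.77 and 0.29 with another pool or ram left out). KPNA2 turned to -0.28 with sums per ram, -0.24 with the ram as a random effect, and -0.99 to -0.11 without Ram424, Ram444 or Embryo444_2 (mean difference -0.37 without Embryo444_2), with highest values of 0.35 and 0.73 without another pool. KPNA4 turned to -0.084 with library-size scaling, -0.0090 under the 50-count filter, -0.21 with sums per ram, -0.12 with the ram as a random effect and -0.065 with Embryo424_1 and Embryo424_2 summed. Without Ram424, Embryo424_1 or Embryo424_2 it lay at -0.73 to -0.014 (highest with 1 pool or ram left out, 0.21). Its mean difference of -0.04 turned to 0.24 without both pools, and to 0.04 to 0.17 without Embryo444_2, Embryo498_1 or Embryo511_1. Without Ram424, KPNA3 turned to -0.26 and KPNB1 to -0.20, against highest values of 0.43 and 0.47 with another left out. KPNA1 stayed above 0 in every alternative (0.66 to 1.53), and KPNA5 stayed below 0 but is not tested under the 50-count filter. The causes were not tested.

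For sperm, 341 cytosines were called. The F test called 0, the fit with no overdispersion correction 5905, at least 20 reads 61 and q under 0.05 529. Leaving out 1 ram gave 446 to 1424. The KPNA7 site kept its difference of -37.1 points under the F test but not its call, and differed by -44.0 to -31.8 points without 1 ram, called only without Ram498. With at least 20 reads per ram the site has no value, since it drops out.

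Precision was limited by 17 to 207 counts per pool for KPNA1, KPNA3, KPNA4, KPNA5 and KPNA7, by 3 rams per diet, and by 10 to 17 reads at the site.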
